A study of Mus musculus with 2 samples.

Results

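The replication-dependent histone genes encode the H1, H2A, H2B, H3 and H4 proteins that package newly made DNA. The genes were taken as all entries whose RefSeq identifier belongs to a gene with a symbol beginning Hist1h, Hist2h, Hist3h or Hist4h, or with the newer name of such a gene, and the transcript with the most reads stood for each gene. The symbol table held 70 such genes, of which 67 had a row in the count table, out of 23003 genes in all. They were 6 H1, 18 H2A, 18 H2B, 12 H3 and 13 H4 genes.

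Most mRNAs end in a poly(A) tail that is added after the transcript is cut. Replication-dependent histone mRNAs are the exception in animal cells: they normally end a few bases past a short stem-loop, which is bound by the stem-loop binding protein Slbp, and carry no poly(A) tail. Their cutting uses the U7 small nuclear RNP and some subunits of the machinery that also cuts polyadenylated mRNAs. Clp1 is an RNA kinase found in cleavage factor II, a complex needed to cut polyadenylated mRNAs, and the study lowered it to examine 3' end processing in the thymus.

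The samples were mTEChi, the medullary thymic epithelial cells with high MHC class II, sorted from a lentigenic mouse that carried doxycycline-inducible shRNAs against Clp1 together with a GFP reporter. The Clp1 knockdown library came from GFP-positive cells and the Ctr library from GFP-negative cells of the same animal. Both groups thus came from a mouse that carried the transgenes and was given doxycycline (2 g/kg in food, begun at 3 weeks of age). Whether every GFP-negative cell carried the transgenes was not measured. Each group was 1 library, so no difference below was tested against replicate error and no p-value is given. The intervals of ratios and shares are exact 95% Clopper-Pearson intervals and cover counting error only. A ratio compares these libraries and not the conditions.

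The libraries held 28464803 (Ctr) and 37524730 (Clp1 knockdown) counted reads, and equal expression corresponded to 1.30 reads in Clp1 knockdown for each read in Ctr after median-of-ratios scaling. Clp1 itself had 1573 reads in Ctr and 812 in Clp1 knockdown, a log2 ratio of -1.33 (interval -1.46 to -1.21), so that 39.7% of the Ctr level was left in the library labelled knockdown. The mTEC markers were abundant in both libraries, with 609988 and 908626 reads over 13 genes. A gene was called higher or lower where it had at least 10 reads over both libraries, a ratio of at least 2-fold and an interval that left out 0. By this rule 4 of the 13 mTEC markers (Epcam, Cd40, Krt5 and Krt14) were higher and 1 (Cd86) was lower. Their median log2 ratio was 0.41, and over all genes 21.9% were higher and 19.7% lower.

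The stem-loop is shown for 8 genes whose levels are described below, since it is the element that sets the usual 3' end. Capitals mark the 16 bases of the stem-loop, with 5 bases on each side in lower case.
Hist1h1c: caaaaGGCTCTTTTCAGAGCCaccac
Hist1h2ao: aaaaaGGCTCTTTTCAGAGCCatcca
Hist1h2ac: ccaaaGGCTCTTTTCAGAGCCcccac
Hist3h2a: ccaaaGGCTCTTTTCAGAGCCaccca
Hist1h2bc: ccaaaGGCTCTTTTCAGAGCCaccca
Hist1h2be: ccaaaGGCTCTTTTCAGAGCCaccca
Hist1h3c: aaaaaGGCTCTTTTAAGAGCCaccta
Hist1h4d: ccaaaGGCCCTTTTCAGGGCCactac
Hist3h2a, Hist1h2bc and Hist1h2be had the same printed bases although their ratios differed, as described below. In mm9 the sequence of Hist1h1c lies at chr13:23831376-23831401 (plus strand), that of Hist1h2ao at chr13:21902762-21902787 (plus), that of Hist1h2ac at chr13:23775341-23775366 (minus) and that of Hist3h2a at chr11:58768669-58768694 (plus). Those of Hist1h2bc, Hist1h2be, Hist1h3c and Hist1h4d lie at chr13:23776511-23776536 (plus), chr13:23677395-23677420 (minus), chr13:23836911-23836936 (minus) and chr13:23673814-23673839 (plus). Each lies downstream of the stop codon.

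The search took, on the coding strand only, the first 16 bases after the stop codon that began with GG, had TT at the start of a 4-base loop and formed a 6-base stem with G:T pairs allowed. Of the 66 histone genes located in the GENCODE vM1 annotation, 54 were on chromosome 13, 9 on chromosome 3, 2 on chromosome 11 and 1 on chromosome 6. The element was found within 150 bases of the stop codon in 62 of them, starting 21 to 58 bases after it (median 30.5), and in 0.426% of the 38507 stop codons of other genes. No match was found in this window for Hist1h3g, Hist1h4a, Hist2h2bb and Hist2h2be. Hist2h2bb was annotated with 2 coding exons, and only bases after the last of them were searched, so its miss does not show that the element is absent. The form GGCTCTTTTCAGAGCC was present in 39 genes, including 15 H2A and 12 H2B genes, and so did not separate the families that differed in level below. The H4 genes carried other stems, with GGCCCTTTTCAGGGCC in 8 of them.

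Of the 67 genes, 66 had at least 10 reads, and the remaining gene, the testis H1 variant Hist1h1t, had 3 reads in each library. Reads per gene over both libraries ranged from 36 to 11290, with a median of 561, and 64 genes had at least 100 reads. Histone mRNAs were therefore counted in libraries whose first step primes on poly(A), and what share of them carried a tail was not measured. In Clp1 knockdown 34 of the 66 genes were lower and 0 were higher. Over all 18543 genes with at least 10 reads, 19.7% were lower and 21.9% were higher by the same rule. The median log2 ratio was -1.12 over the 66 histone genes and 0.03 over all genes.

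**Figure D1:**
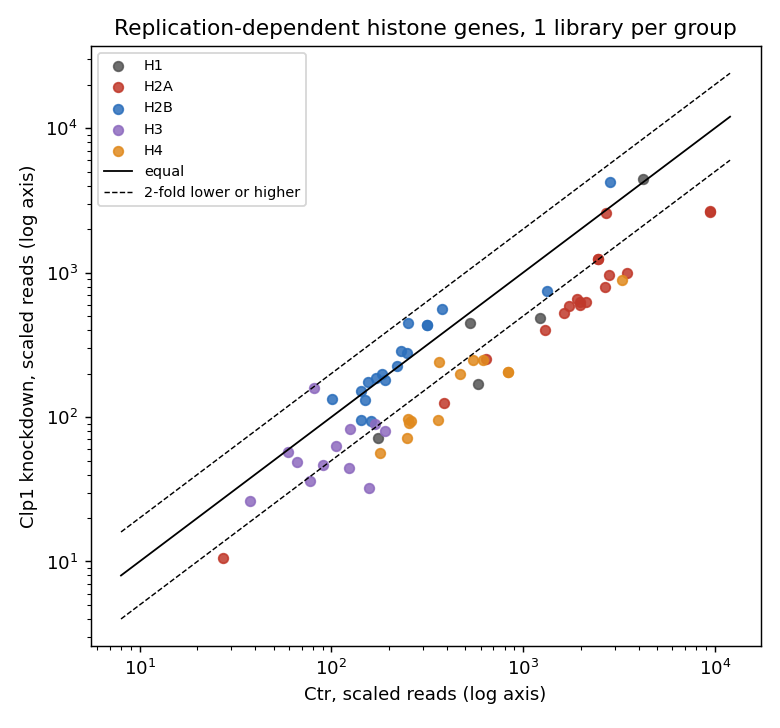
Scaled reads of the 66 histone genes with at least 10 reads in Ctr (x axis) and Clp1 knockdown (y axis), both on log axes, coloured by family, with lines of equality and of 2-fold difference. Most H2A (red) and H4 (orange) genes lie under the lower dashed line, whereas the H2B genes (blue) lie between the dashed lines.

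Near-identical copies limit what a count for 1 gene means. In 11 genes no 50-base window of the coding sequence occurred only once in the genome, and in 16 of the 66 located genes at least 50% of windows did. Up to 19 copies of a window were found for H2A genes. In 4 pairs of genes both counts were within 1% of each other and no window was unique (Hist1h2ao and Hist1h2ap, Hist2h2aa1 and Hist2h2aa2, Hist1h4m and Hist1h4n, Hist1h2bq and Hist1h2br), so the 67 genes rested on at most 63 separate sets of reads. With each of these pairs counted once, the summed reads were 52762 in Ctr and 35441 in Clp1 knockdown, a log2 ratio of -0.95 (interval -0.97 to -0.93).

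The families did not move alike. The H2A genes, whose products pair with H2B in the nucleosome, were lower in 15 of 18 genes, and the median log2 ratio was -1.63. The H4 genes, whose products pair with H3, were lower in 12 of 13, with a median of -1.48. None of the 18 H2B genes was called in either direction, and their median was 0.14; with the trend over GC content subtracted, 1, Hist2h2be, was called lower (log2 ratio -1.29). H3 genes were lower in 4 of 12 (median -0.83) and the linker histone H1 genes in 3 of 5 with enough reads (median -1.27).

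**Figure D2:**
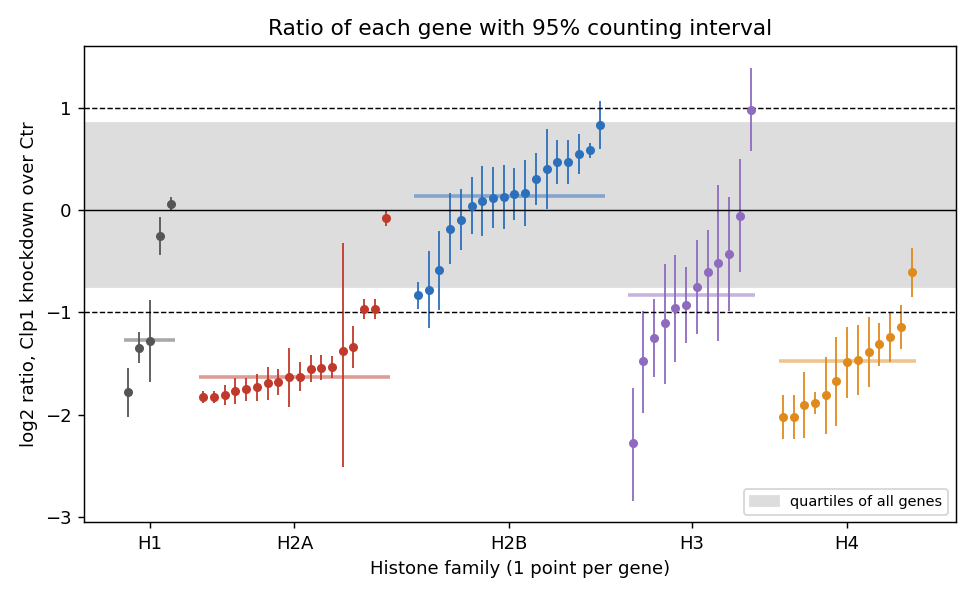
Log2 ratio of Clp1 knockdown over Ctr for each of the 66 genes, sorted within families, with 95% counting intervals; thick bars are family medians and the grey band runs from the lower to the upper quartile of all genes. The H2A median is -1.63 and the H2B median is 0.14, and the dashed lines mark 2-fold.

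Among the H2A genes the most abundant were the indistinguishable copies Hist1h2ao and Hist1h2ap. Hist1h2ao had 8260 reads in Ctr and 3030 in Clp1 knockdown, a log2 ratio of -1.83 (interval -1.89 to -1.77) or 3.54-fold lower. Hist1h2ag fell from 3071 to 1137 reads (log2 ratio -1.81, interval -1.91 to -1.71). The called genes of the Hist1 cluster had ratios from -1.83 to -1.38, and most of them share most of their windows with another gene. Hist2h2ac was also called lower (log2 ratio -1.34). Hist1h2ac, which had 18.0% unique windows, fell from 2458 to 1103 reads (log2 ratio -1.53, interval -1.64 to -1.43).

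Only 3 H2A genes had at least 50% unique windows, and they did not behave alike. Hist2h2ab had 341 reads in Ctr and 143 in Clp1 knockdown, with a log2 ratio of -1.63 (interval -1.92 to -1.35). Hist1h2aa, a variant made mainly in the male germline, had 24 and 12 reads (log2 ratio -1.38, interval -2.51 to -0.32), which was called lower but rests on few reads. Hist3h2a, which lies in a separate cluster on chromosome 11, had 2378 and 2936 reads, and its log2 ratio of -0.07 (interval -0.15 to 0.00) was the highest of the family. The remaining uncalled H2A genes were the copies Hist2h2aa1 and Hist2h2aa2, at 2150 reads in Ctr against 1426 in Clp1 knockdown for Hist2h2aa1 (log2 ratio -0.97, interval -1.07 to -0.87). In the table of transcript parts Hist2h2aa2 had 2929 and 1836 reads, slightly past 2-fold after scaling, so its call depends on which table was counted.

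The H4 genes encode the same protein from many loci. Hist1h4d was the most abundant, with 2879 reads in Ctr and 1013 in Clp1 knockdown (log2 ratio -1.89, interval -1.99 to -1.78), and 57.8% of its windows were unique. Hist2h4, with 93.9% unique windows, fell from 157 to 64 reads (log2 ratio -1.67, interval -2.12 to -1.24). The 12 called H4 genes had log2 ratios from -2.02, in the copies Hist1h4m and Hist1h4n, to -1.14 in Hist1h4h. The H4 gene that was not called was Hist4h4 on chromosome 6, in which all windows were unique. It had 319 and 272 reads (log2 ratio -0.61, interval -0.85 to -0.37), whereas the table of transcript parts gave it 75 and 94 reads (log2 ratio -0.05, interval -0.51 to 0.40), so the size of its difference depends on which table was counted.

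The H2B genes lay on both sides of equality, from -0.83 to 0.84, with 13 of 18 above 0 and 5 below. Hist1h2bc, the most abundant, had 2476 reads in Ctr and 4831 in Clp1 knockdown, a log2 ratio of 0.59 (interval 0.52 to 0.66). Hist1h2be had 219 and 508 reads and the highest ratio of the family, at 0.84 (interval 0.60 to 1.07). Neither reached 2-fold. The 4 H2B genes with at least 50% unique windows had a median of -0.68. Of these Hist2h2be, in which all windows were unique, had 1173 and 855 reads (log2 ratio -0.83, interval -0.96 to -0.71), Hist2h2bb and Hist3h2ba were at -0.78 and -0.59, and Hist1h2ba was at 0.09. The median of the family thus changed sign when only these genes were taken. Of the genes under 50%, Hist1h2bb and Hist1h2bm, with 44.6% and 44.3% unique windows, were at 0.17 and 0.40.

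The H3 genes had fewer reads than the other core histones, 1128 in Ctr and 875 in Clp1 knockdown over 12 genes. Hist1h3c fell from 138 to 37 reads (log2 ratio -2.28, interval -2.84 to -1.75), the lowest ratio of the 66 genes. Hist1h3d, Hist1h3e and Hist1h3h were also called lower, at log2 ratios of -1.47, -1.25 and -1.11. The uncalled H3 genes other than Hist2h3c1 lay from -0.95 to -0.06. Hist2h3c1 had 71 and 182 reads, with a log2 ratio of 0.98 (interval 0.58 to 1.40), just under 2-fold, but it had 100 and 99 reads in the table of transcript parts (log2 ratio -0.39, interval -0.81 to 0.02) and no unique window, so its ratio is uncertain.

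The H1 genes differ in sequence from each other, and each had at least 50% unique windows. Hist1h1c, the most abundant, had 3704 reads in Ctr and 5030 in Clp1 knockdown, a log2 ratio of 0.06 (interval 0.00 to 0.12). Hist1h1e, by contrast, fell from 1080 to 553 reads (log2 ratio -1.34, interval -1.49 to -1.19). Hist1h1b fell from 513 to 194 (log2 ratio -1.78, interval -2.03 to -1.54) and Hist1h1a from 153 to 82 (log2 ratio -1.28, interval -1.68 to -0.88). Hist1h1d was at 466 and 508 reads, a log2 ratio of -0.25 (interval -0.44 to -0.07). The H1 family thus held both called and near-equal genes among members whose reads can be told apart.

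Many H2A and H2B genes lie head to head and are transcribed away from each other from a common promoter region. There were 12 such pairs, with under 1000 bases between their coding starts. In 12 of 12 the ratio of the H2A gene was below that of its H2B neighbour, with log2 differences (H2A minus H2B) from -2.29 to -0.50 and a median of -1.81. The pair of Hist1h2ac and Hist1h2bc, whose coding starts are 314 bases apart, had nearly equal reads in Ctr (2458 and 2476) and 1103 against 4831 in Clp1 knockdown. The smallest difference was in the pair of Hist2h2ac and Hist2h2be, at -0.50, in which 46.6% of the windows of the H2A gene and all of those of the H2B gene were unique. In the pair of Hist1h2aa and Hist1h2ba, with 97.7% and 61.8% unique windows, the difference was -1.43, on 24 and 12 reads for the H2A gene. These pairs share reads with each other within each family, so the 12 differences are not 12 independent measurements.

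**Figure D3:**
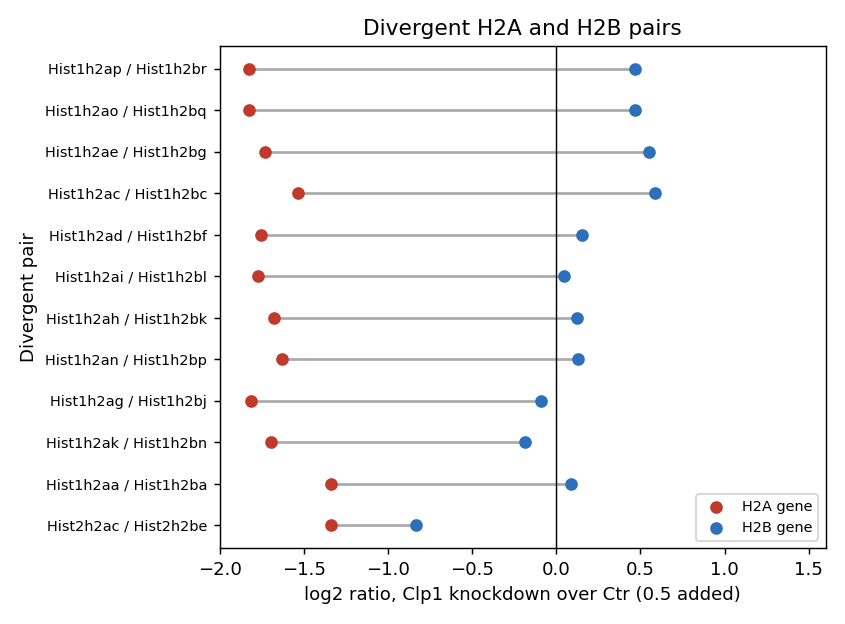
Log2 ratio of Clp1 knockdown over Ctr for the H2A (red) and H2B (blue) gene of each of 12 divergent pairs, with a grey line joining the neighbours. The red point is left of the blue point in 12 of 12 pairs.

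The genes were next grouped by where the annotation used for the parts table ends. In 34 genes the annotated transcript held the coding sequence only. In 13, here the class ending at the stem-loop, it ended no more than 100 bases past the stem-loop. In Hist1h2ao, Hist2h4 and Hist1h2bb of this class it ended before the stem-loop began. In 16 genes the annotated end was further than 100 bases past the stem-loop. The remaining 4 genes had an annotated 3' end but no located stem-loop. Lower calls were made for 21 of 34 genes annotated with the coding sequence only (median log2 ratio -1.36). In the class ending at the stem-loop 9 of 13 were called lower (median -1.27). Among those with a longer annotated end, 4 of 15 with enough reads were lower (median -0.07), beside 19.7% of all genes. The longer class held 7 H2B genes and 3 H2A genes, so the medians of the classes mix families. Among these H2B genes, Hist1h2bp, Hist1h2bq and Hist1h2br had their annotated end in a later exon. Their annotation need not hold the stem-loop, so their place in this class is uncertain. Among genes annotated with the coding sequence only, the 11 H2A genes had a median of -1.63 (range -1.83 to -0.97). The 8 H2B genes had a median of 0.11 (range -0.18 to 0.40), and these ranges did not overlap. Most of these genes share most of their windows with other genes, so values within a range are not independent. Of those with at least 50% unique windows, Hist2h2ab (-1.63) and Hist1h2aa (-1.38, on few reads) lay below Hist1h2ba (0.09). Over all classes, H2A genes with at least 50% unique windows ran from -1.63 to -0.07 (Hist3h2a). The H2B genes with at least 50% ran from -0.83 (Hist2h2be) to 0.09, so these ranges overlapped. The H2A median was -1.68 in the class ending at the stem-loop and -1.53 in the longer class, which held both Hist1h2ac and Hist1h2ae, called lower, and Hist3h2a, which was not.

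Reads past a proximal poly(A) site can be counted in genes whose annotation is split there. The distal 3'UTR (d3'UTR), the region after a proximal poly(A) site, lay wholly past the stem-loop in 5 genes. The part before that site can also hold bases past the stem-loop. In Hist3h2a it was 867 bases long, of which 393 were coding, and the stem-loop began 41 bases after the stop codon. The d3'UTR shares below thus split reads at the poly(A) site and not at the stem-loop. Over these the d3'UTR reads numbered 224 in Ctr and 442 in Clp1 knockdown, a log2 ratio of 0.60 (interval 0.37 to 0.84). The value rests on single genes: it was 0.26 (interval 0.01 to 0.51) without Hist1h2be and 1.46 (interval 0.91 to 2.06) without Hist3h2a. Hist1h2be had 8 d3'UTR reads in Ctr and 106 in Clp1 knockdown, against 208 and 396 in the rest of its last exon. The d3'UTR share of its last-exon reads was thus 3.70% (interval 1.61 to 7.17) in Ctr and 21.1% (17.6 to 24.95) in Clp1 knockdown. The intervals did not overlap.

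Hist3h2a had 190 and 320 d3'UTR reads, a share of 8.44% (7.33 to 9.67) in Ctr and 11.5% (10.3 to 12.7) in Clp1 knockdown. Hist1h2bq and Hist1h2br, which share their reads, had 36 and 114 reads in a later exon, and the share was 7.88% (5.58 to 10.7) in Ctr and 15.2% (12.7 to 18.0) in Clp1 knockdown. Hist1h2bp had 4 and 21 later-exon reads, at 2.68% (0.736 to 6.73) and 9.91% (6.24 to 14.7), and these intervals overlapped. The shares of Hist1h2ae, at 1.31% and 1.46%, and of Hist1h3f, at 5.10% and 9.33%, had overlapping intervals too, and Hist1h3a had 0 d3'UTR reads in both libraries. The shares compare 1 library with 1 library. How often such shares rose over all genes was not counted, so the shifts cannot be read as particular to histone genes.

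**Figure D4:**
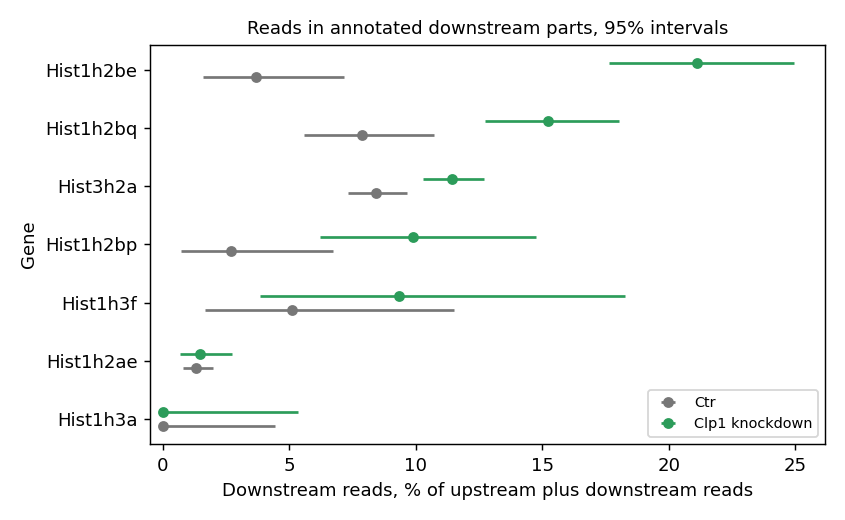
Share of reads in the downstream part (d3'UTR or later exon) among upstream plus downstream reads, in percent with exact 95% intervals, for 7 read sets in Ctr (grey) and Clp1 knockdown (green). Hist1h2be goes from 3.70% to 21.1%, and the intervals of Hist1h2ae, Hist1h3f and Hist1h2bp overlap.

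The lists of other histone and cell cycle genes had medians from -0.12 to 0.43. Their counts of called genes stand beside 21.9% higher and 19.7% lower over all genes. Most replacement histones are made from polyadenylated mRNAs. Of the 11 in the list 1 was higher and 1 lower, with 5 ratios above 0, 6 below and a median log2 ratio of -0.01. H2afx, which was not called, had 4284 and 2832 reads (log2 ratio -0.98, interval -1.04 to -0.91), just under 2-fold. H2afy2, a macroH2A gene, had 949 and 3985 reads (log2 ratio 1.69, interval 1.59 to 1.80), and Cenpa, the centromeric H3, fell from 852 to 451 (-1.30, interval -1.46 to -1.13). Of 22 S phase and replication genes 6 were higher and 0 lower (median 0.43), with 14 ratios above 0 and 8 below. The share called higher was near that over all genes. By reads the most abundant of the 6 were Mcm6, a helicase subunit, at 1313 and 4396 reads (log2 ratio 1.36), and Rrm1, a subunit of ribonucleotide reductase, at 457 and 2362 (1.99). The largest ratios were those of Ccne1, a cyclin, at 1 and 441 reads (8.41, interval 5.92 to 13.7), and of Gins1, a replication helicase factor, at 0 and 194 reads. With no Ctr read the ratio of Gins1 has no upper limit, and its interval began at a log2 ratio of 5.32. Of 16 mitosis genes 2 were higher and 1 lower (median -0.12), and of 14 histone chaperones 0 were higher and 2 lower (median 0.28), Asf1b from 896 to 383 reads and Hira from 360 to 222.

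Among 18 factors that act at histone mRNA 3' ends, 3 were higher and 3 lower (median 0.35), shares near the 21.9% and 19.7% over all genes. Slbp, which binds the stem-loop, had 1998 reads in Ctr and 2874 in Clp1 knockdown (log2 ratio 0.15, interval 0.06 to 0.23). The U7 subunit gene Lsm11 rose from 93 to 365 reads (1.59, interval 1.26 to 1.94), whereas Lsm10, for its partner subunit, was at 868 and 767 (-0.56, interval -0.70 to -0.42). The values below are given for single genes. Npat, a coactivator of histone gene transcription, was at 461 and 1103 reads (0.88, interval 0.72 to 1.04), Casp8ap2, a protein of histone locus bodies, fell from 1298 to 633 (-1.41, interval -1.55 to -1.28), and Zfp473, a U7-associated protein, had 10 and 22 reads (0.76, interval -0.38 to 2.00). Eri1, an exonuclease that trims the stem-loop end, rose from 684 to 2416 (1.44, interval 1.32 to 1.57), and Cpsf3, the endonuclease that cuts both kinds of mRNA, from 1124 to 3077 (1.07, interval 0.98 to 1.17). Upf1, a helicase that acts in histone mRNA decay, fell from 1770 to 1097 (-1.07, interval -1.18 to -0.96).

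Markers of other cell types were also lower in Clp1 knockdown, where 19.7% of all genes were called lower. Thymocyte markers were lower in 17 of 21 genes, from 27475 reads in Ctr to 12030 in Clp1 knockdown (median log2 ratio -1.42), although the sort took CD45-negative cells, a gate meant to leave thymocytes out. Endothelial markers were lower in 9 of 9 (21242 and 2660 reads), red cell markers in 5 of 5 with enough reads (89935 and 3840 reads, with the globin copies Hba-a1 and Hba-a2 counted on the same reads), fibroblast markers in 6 of 7 (13529 and 4975), B cell markers in 4 of 7 (1845 and 1104) and dendritic cell and macrophage markers in 7 of 10, with 1 higher (12806 and 18264). No marker of these lists was at 0 in either library. Their part in the histone result was not tested, and fewer cells of a type cannot be told apart from less RNA per cell. The histone genes also differ in base composition from other genes, with a median GC content of 59.5% against 50.8% over all genes, and the median log2 ratio of all genes in the same GC bin was -0.47 for the typical histone gene.

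**Figure D5:**
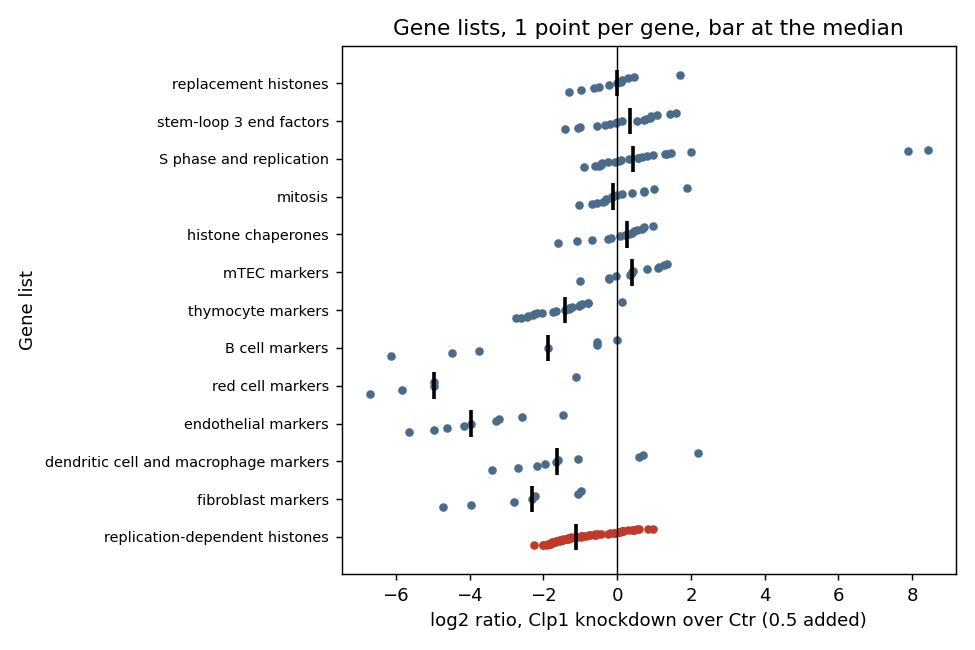
Log2 ratio (0.5 added to scaled reads) of Clp1 knockdown over Ctr for each gene with at least 10 reads of 12 lists and of the histone genes (red), with a black bar at each median. The histone median is -1.12, that of the thymocyte markers is -1.42, and that of the S phase and replication genes is 0.43.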

How the data were processed

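RNA was amplified with a SMARTer Ultra Low Input kit, made into Nextera libraries and sequenced as single-end reads. The authors aligned reads to mm9 with Bowtie 1.0.0 and deposited raw counts per RefSeq transcript and per transcript part, from bedtools. The handling of strand and of reads matching several loci was not stated. A deposited table of DESeq comparison values was not used. The 30794 transcripts were assigned to 23003 genes. Scaling used size factors from the median of ratios (0.877 for Ctr, 1.14 for Clp1 knockdown). Medians used log2 ratios with 0.5 added to scaled counts. Ratios of named genes had nothing added. Intervals of ratios and shares were exact 95% binomial intervals, and since reads carry no molecular identifiers they cover counting error only. The calculation was checked on simulated data. Every member is accounted for, and genes with at least 100 reads or a call were described by values or ranges. Of 155 list symbols 154 matched. Of each comparison list, called genes with the most reads and fixed 3' end factors were eligible to be named. The members and lists were chosen with earlier results of these data known. Alternatives were total-count and edgeR 4.0.16 TMM scaling, read minimums of 1 and 50, every transcript, GC and length trends in 20 bins, unique windows, other additions and the parts table. Python 3.11.15, SciPy 1.17.1 and R 4.3.3 were used.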

Additional observations from a re-analysis of the deposited data

How the results depend on the processing

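No paired analysis was possible because each group is 1 library, and for the same reason no library could be left out. Of 170 alternative values 151 stayed within the interval or 1.5-fold range of the main value and 19 moved. For medians this interval was not a counting interval but ran between ratios of genes in the list, for H1 from -1.78 to 0.06. Short lists thus had wide intervals, and values that stayed include changes of sign. With every RefSeq transcript the median of the mTEC markers went from 0.41 to -0.12. With the GC trend subtracted that of the histone chaperones went from 0.28 to -0.03. The count of 151 is thus a weak check. The log2 ratio of summed histone reads was -0.97 with total-count scaling, -0.71 with the GC trend subtracted and -0.80 with the length trend subtracted. It was -0.55 over genes with at least 50% unique windows and -0.98 from the parts table. With every RefSeq transcript it was -1.12, but there the read-sharing pairs were not counted once as in the main value. With 1 transcript per gene and both copies of each pair counted it was -1.04. With the GC trend subtracted 27 histone genes were lower in place of 34, among them 13 H2A, 8 H4 and 1 H2B gene. There 1, Hist2h3c1, was higher (log2 ratio 1.51), and the medians were -1.13 for H2A, 0.48 for H2B and -1.18 for H4. With the length trend subtracted 30 were lower. The shares of all genes called with either trend subtracted were not counted, so these counts have no background beside them. Over the genes with at least 50% unique windows 7 were lower, beside 19.7% of all genes by the same rule. This is fewer than 34 because only 15 genes with enough reads remain, and the H2B median turned from 0.14 to -0.68. The log2 ratio of summed d3'UTR reads was 0.26 without Hist1h2be and 1.46 without Hist3h2a, alternatives chosen after seeing the data. Replicate error could not be estimated, reads of near-identical copies could not be separated, and genes with few reads, such as Hist1h2aa, had wide intervals.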
